A study of Mus musculus with 6 samples.

Results

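Integrins and adhesion molecules are the surface proteins by which hematopoietic stem cells hold on to matrix and to neighbouring cells of the bone marrow. They were described here through 30 genes of 19938 with a probe set of their own, in RNA of long-term hematopoietic stem cells (LT-HSCs) with and without latexin (Lxn). The members were taken by gene symbol from the platform annotation and comprised 10 integrin alpha subunits, 5 integrin beta subunits, 2 cadherins, 8 immunoglobulin-type molecules, 2 selectin-related receptors and 3 tetraspanins. Each member was represented by 1 probe set with that symbol alone, so no choice among probe sets was needed.

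The 2 groups were female C57BL/6 mice aged 8 to 12 weeks, WT mice with an intact latexin gene and Lxn-/- mice with a deletion of exons 2 to 4 and no latexin protein. Latexin is an inhibitor of metallocarboxypeptidases, and the series asks which LT-HSC genes are expressed differently after its deletion. Marrow cells were sorted as lineage-negative, Sca1-positive, c-Kit-positive, CD34-negative and Flt2-negative, in the labels' spelling. Each group had 3 Affymetrix mouse Gene ST arrays, and each array received RNA from a pool of nearly 100000 cells from 10 to 20 mice.

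Integrins are heterodimers of an alpha and a beta subunit, and the pairing sets the ligand. Subunits that pair with Itgb1 bind matrix proteins and Vcam1, those that pair with Itgb2 bind Icam molecules and are leukocyte-specific, and Itgav pairs with Itgb3 or Itgb5 to bind vitronectin and related proteins. Cadherins and many immunoglobulin-type molecules bind their own kind on the next cell, Selplg and Cd44 carry ligands of selectins, and tetraspanins gather integrins into membrane patches. In marrow, such contacts are known to keep stem cells in place and to be loosened when the cells enter the blood.

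Promoters of the members were taken from RefSeq on GRCm38.p6, from 250 bases before to 50 bases after the gene's start. The table matched 17 of the 30 members. The promoter of Cd9 is shown because it was the member whose genotype groups did not overlap, and that of Itgam because it had the widest spread between pools among the members matched. Capitals mark the letters CCGGAA, a motif of ETS factors, in the Cd9 promoter, and the letters GAGGAA, a motif of the myeloid factor PU.1, in the Itgam promoter, on either strand.
Cd9 promoter, chr6:125494711-125495010, minus strand: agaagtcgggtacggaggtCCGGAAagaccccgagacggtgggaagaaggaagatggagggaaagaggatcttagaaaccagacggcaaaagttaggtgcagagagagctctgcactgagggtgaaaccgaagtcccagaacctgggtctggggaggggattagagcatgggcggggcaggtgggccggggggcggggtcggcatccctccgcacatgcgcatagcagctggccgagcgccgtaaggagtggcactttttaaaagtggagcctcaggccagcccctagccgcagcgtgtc
Itgam promoter, chr7:128062390-128062689, plus strand: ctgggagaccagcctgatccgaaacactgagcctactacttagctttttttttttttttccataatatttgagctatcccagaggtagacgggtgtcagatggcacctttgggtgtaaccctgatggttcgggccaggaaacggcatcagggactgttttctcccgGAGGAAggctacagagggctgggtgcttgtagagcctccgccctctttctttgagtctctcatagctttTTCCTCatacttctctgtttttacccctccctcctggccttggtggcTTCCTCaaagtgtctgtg
The Cd9 promoter held 1 ETS motif, starting 231 bases before the gene's start. The Itgam promoter held 3 PU.1 motifs, and the farthest upstream started 84 bases before the gene's start. PU.1 letters occurred for 9 of the 17 members and in 31.3% of 27025 genes in the table, ETS letters for 4 members and in 16.7% of genes, and the GATA letters AGATAA for 1 member and in 12.7% of genes. A gene was counted if any of its promoters held the letters, and the 3 motifs do not overlap in the promoters shown. These matches describe letters in this window only.

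The level scale throughout is log2 expression normalized by robust multi-array average (RMA), and differences are Lxn-/- minus WT on that scale. All 30 members lay above 6.93 on all 6 arrays, a mark for background set at the 95th percentile of 1205 probe sets for receptors of odorants and pheromones. Median log2 values of the arrays ran from 7.77 to 7.91. Lxn itself had 8.99, 9.09 and 9.55 in WT and 8.66, 8.78 and 8.78 in Lxn-/-, without overlap, and the position of its probes relative to the deleted exons was not known. Of 14 LT-HSC markers, 12 were measured and all 12 were above the mark, among them the receptor genes Kit (12.80 to 12.96) and Procr (10.03 to 10.45). Cd34 (13.01 to 13.30) and Flt3 (11.59 to 12.20) were above the mark too, although the gate was negative for CD34. Markers of other blood cells were detected as well, with all 15 neutrophil markers, all 12 measured B cell markers and all 8 plasma cell markers above the mark. Plasma cell markers averaged 10.89 to 11.33 in the WT pools and 10.53 to 10.58 in the Lxn-/- pools. All 8 of 8 genes were lower without overlap, where 56.0% of all genes were lower and 5.49% were lower without overlap. Markers of B cells (11 of 12), erythroid cells (9 of 9) and mast cells, basophils and eosinophils (6 of 7) were mostly lower too. Neutrophil markers (11 of 15) and T and natural killer cell markers (8 of 10) were mostly higher. The part of these cells in the values of the members was not tested. Over all 23410 probe sets with a symbol, limma called 0 at an adjusted p of 0.05 (0% of those tested), 914 had an unadjusted p under 0.05, and the lowest adjusted p was 0.993.

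None of the 30 adhesion genes could be called different between Lxn-/- and WT LT-HSCs. In limma 0 of 30 members passed an adjusted p of 0.05, and 0 of 30 had an unadjusted p under 0.05, where 3.76% of all genes did. The member of lowest unadjusted p was Itga9 (0.0520). Differences were above 0 for 17 members and below 0 for 13, with a median of 0.0054 beside -0.013 over all genes. They ran from -0.34 for Cdh2 to 0.19 for Itga9. For 1 member, Cd9, all Lxn-/- values lay above all WT values, and for 0 members all lay below. Over all genes these shares were 3.30% above and 5.49% below, or 8.79% in either direction.

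The precision differed widely among members. The 95% confidence interval of the difference lay within 0.3 log2 units of 0 (1.23-fold) for 18 members, within 0.5 units (1.41-fold) for 26 and within 1 unit (2-fold) for 29. Over all genes the corresponding shares were 65.0%, 93.7% and 99.3%. The exception at 1 unit was Cdh5, whose interval ran from -1.45 to 0.90. Under the limma model, the 95% interval of the difference in array signal thus stayed within 2-fold for 29 of the 30 adhesion genes. The intervals hold for 1 gene at a time and were not adjusted over the 30 genes. The plot of differences with their intervals shows the narrow group and the wide one.

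**Figure D1:**
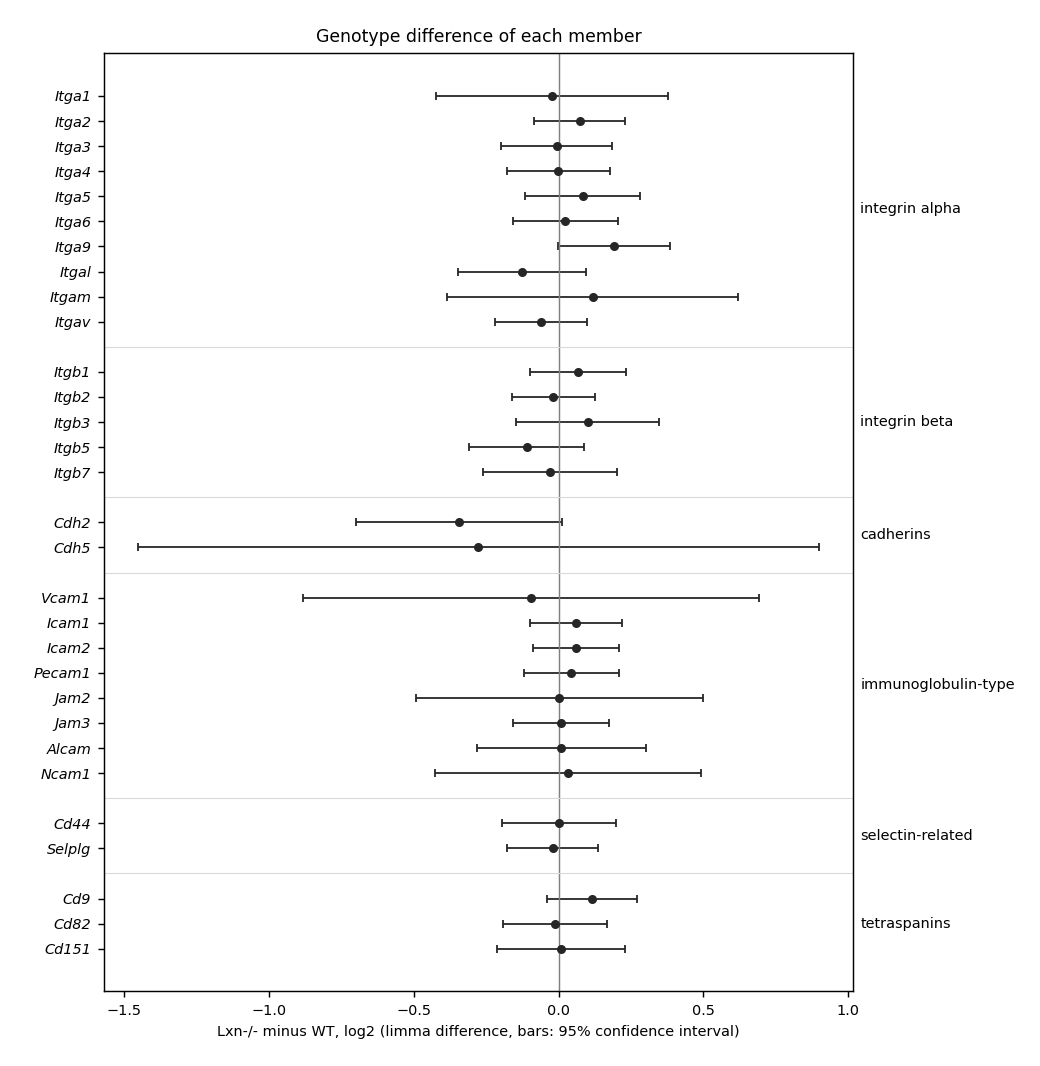
Genotype difference of each of the 30 members, Lxn-/- minus WT on the log2 scale, with points for limma differences and bars for 95% confidence intervals, grouped by family. All 30 intervals include 0, and that of Cdh5, from -1.45 to 0.90, is the widest.

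Among integrin alpha subunits, Itga9 and Itgal had the largest differences in size, and 5 of the 10 differences were above 0. Itga9, which pairs with Itgb1 and binds tenascin, osteopontin and Vcam1, had 9.22, 9.26 and 9.36 in WT (mean 9.28) and 9.60, 9.47 and 9.35 in Lxn-/- (mean 9.47). The groups overlapped, since Lxn-/- replicate 3 lay just below WT replicate 3. The difference was 0.19 (SE 0.084, 95% confidence interval -0.0021 to 0.39), with an exact permutation p of 0.2 and a limma adjusted p of 0.993. It ranged from 0.13 without Lxn-/- replicate 1 to 0.26 without Lxn-/- replicate 3.

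Itgal, the alpha subunit of the lymphocyte integrin that binds Icam molecules, had 10.93, 10.82 and 10.80 in WT (mean 10.85) and 10.79, 10.86 and 10.53 in Lxn-/- (mean 10.73). Its lowest value was that of Lxn-/- replicate 3, and without that pool the difference of -0.13 (SE 0.096) was -0.029. Itga4, the subunit through which stem cells bind Vcam1 and fibronectin, had 12.42, 12.42 and 12.45 in WT (mean 12.43) and 12.46, 12.54 and 12.30 in Lxn-/- (mean 12.43). The WT pools agreed within 0.019 (SD, n = 3), the Lxn-/- pools within 0.12 (SD, n = 3), and the difference was -0.00046 (SE 0.077).

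The other alpha subunits of matrix receptors had differences close to 0. Itga5, of the fibronectin receptor, had a mean of 10.43 (SD 0.037) in WT against 10.51 (SD 0.15) in Lxn-/- (n = 3 each), a difference of 0.083 (SE 0.086). Itga6, of the laminin receptor, had 11.10 (SD 0.063) in WT against 11.12 (SD 0.11) in Lxn-/- (n = 3 each), a difference of 0.023 (SE 0.078). Itga2, of a collagen receptor, had 9.43, 9.42 and 9.32 in WT (mean 9.39) and 9.46, 9.42 and 9.52 in Lxn-/- (mean 9.46), with overlap and a difference of 0.073 (SE 0.068). Each of these differences was close to or below its standard error. Itga3, which also pairs with Itgb1 and binds laminins, had 7.67 (SD 0.056) in WT against 7.66 (SD 0.13) in Lxn-/- (n = 3 each), a difference of -0.0067 (SE 0.083). Itgav had 10.34 (SD 0.046) in WT against 10.28 (SD 0.073) in Lxn-/- (n = 3 each), a difference of -0.062 (SE 0.069).

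Itga1 and Itgam, the remaining alpha subunits, varied far more between pools than between genotypes. Itga1, of a collagen receptor, had 8.00, 7.83 and 8.00 in WT (mean 7.94) and 8.04, 8.23 and 7.49 in Lxn-/- (mean 7.92), with both extremes among the Lxn-/- pools. Its difference was -0.023 (SE 0.17), and 0.19 without Lxn-/- replicate 3. Itgam, the alpha subunit of the complement receptor of neutrophils and macrophages, had 9.96, 10.05 and 9.40 in WT (mean 9.80) and 9.95, 9.54 and 10.27 in Lxn-/- (mean 9.92). Its lowest and highest pools were WT replicate 3 and Lxn-/- replicate 3, and its difference of 0.12 (SE 0.22) was -0.085 without the former and -0.057 without the latter.

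The 5 beta subunits had differences between -0.11 and 0.10, with 2 above 0. Itgb5, a partner of Itgav, had 9.69, 9.66 and 9.82 in WT (mean 9.73) and 9.70, 9.47 and 9.68 in Lxn-/- (mean 9.62). Itgb3, another partner of Itgav and a subunit of the platelet fibrinogen receptor, had 9.44, 9.67 and 9.33 in WT (mean 9.48) and 9.46, 9.56 and 9.72 in Lxn-/- (mean 9.58). In both genes the groups overlapped, with differences of -0.11 (SE 0.085) and 0.10 (SE 0.11). Itgb1, the partner of most matrix-binding alpha subunits, had a mean of 11.22 (SD 0.096) in WT against 11.28 (SD 0.033) in Lxn-/- (n = 3 each), a difference of 0.067 (SE 0.072). Itgb7, which pairs with Itga4 in gut homing, had 9.41 (SD 0.030) in WT against 9.38 (SD 0.20) in Lxn-/- (n = 3 each), a difference of -0.030 (SE 0.10).

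Itgb2, the common beta subunit of the leukocyte integrins, was the steadiest of the 30 members. It had 10.66, 10.64 and 10.59 in WT (mean 10.63) and 10.59, 10.65 and 10.59 in Lxn-/- (mean 10.61), all within 0.069 of each other. Its difference was -0.019 (SE 0.062). Its partner Itgam spanned 0.87 over the same arrays and its partner Itgal 0.40.

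For 9 pairs of alpha and beta subunits that form dimers, the gap between partners within an array was also compared between genotypes. Other known dimers of members, among them those of Itgb1 with Itga1, Itga2, Itga3 and Itgav, were not compared. Over the 9 pairs the gap, alpha minus beta, differed by -0.16 to 0.14. Exact two-sided permutation p-values ran from 0.2 to 0.9, and from 0.788 to 0.9 after Benjamini-Hochberg adjustment over the 9 pairs only. The largest difference in size among the 9 was that of Itgav against Itgb3, -0.16. The gap of that pair had an SD of 0.19 in WT and 0.10 in Lxn-/- (n = 3 each). For other pairs the difference was smaller in size. It was 0.13 for Itga9 against Itgb1 and -0.067 for Itga4 against Itgb1. With 3 pools against 3, no exact permutation p can be below 0.1.

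**Figure D2:**
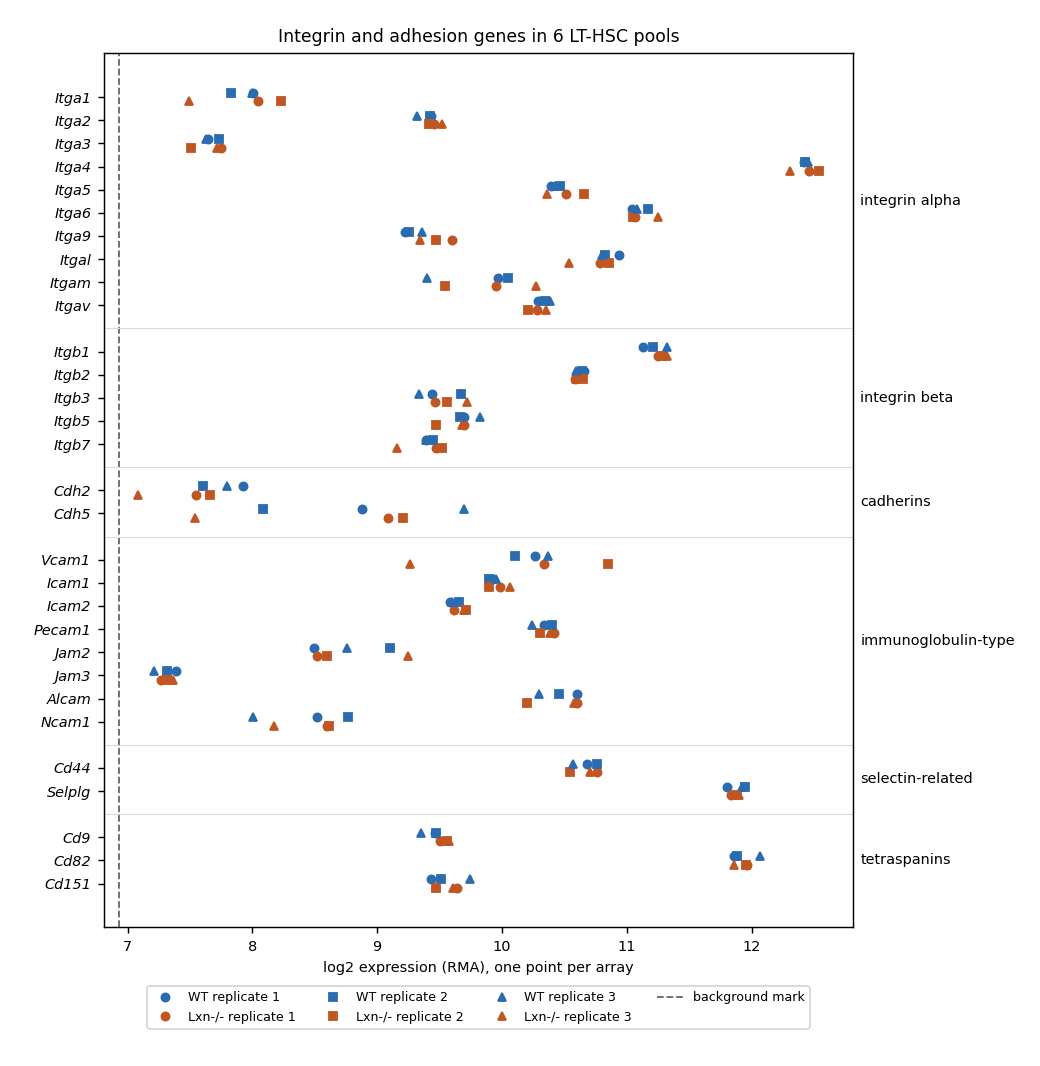
Log2 expression of the 30 members in each of the 6 arrays, WT in blue and Lxn-/- in orange. Each replicate number has 1 symbol shape, and the labels name no pairing by number. The dashed line is the background mark of 6.93, and every point lies to its right. Cdh5, Vcam1 and Itgam show the widest scatter, and Itgb2 the narrowest.

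Both cadherins had lower means in Lxn-/-, and in both Lxn-/- replicate 3 was the lowest pool. Cdh2, N-cadherin, whose role in contacts between stem cells and the marrow niche has been debated, had 7.93, 7.61 and 7.80 in WT (mean 7.78) and 7.55, 7.66 and 7.08 in Lxn-/- (mean 7.43). The groups overlapped because Lxn-/- replicate 2 lay above WT replicate 2. The difference was -0.34 (SE 0.15, 95% confidence interval -0.70 to 0.013), with an exact permutation p of 0.2 and a limma adjusted p of 0.993, and -0.17 without Lxn-/- replicate 3.

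Cdh5, VE-cadherin, the adhesion molecule of endothelial junctions, had 8.87, 8.09 and 9.70 in WT (mean 8.89) and 9.09, 9.20 and 7.54 in Lxn-/- (mean 8.61). The arrays spanned 2.16 log2 units, the widest range of any member, and each genotype held both high and low pools. The difference was -0.28 (SE 0.51), and it was 0.26 without Lxn-/- replicate 3, 0.13 without WT replicate 3 and -0.68 without WT replicate 2.

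Of the 8 immunoglobulin-type genes, 7 had differences above 0, none larger than 0.061. Vcam1, the ligand of the Itga4 and Itgb1 dimer, was the 1 gene with a negative difference. It had 10.26, 10.11 and 10.37 in WT (mean 10.24) and 10.34, 10.85 and 9.27 in Lxn-/- (mean 10.15). The 3 WT pools and Lxn-/- replicate 1 were close together, Lxn-/- replicate 2 was the highest array and Lxn-/- replicate 3 the lowest. The difference of -0.094 (SE 0.34) was 0.35 without Lxn-/- replicate 3 and -0.44 without Lxn-/- replicate 2.

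The ligands of the Itgb2 integrins were steady. Icam2 had 9.58, 9.65 and 9.60 in WT (mean 9.61) and 9.61, 9.71 and 9.70 in Lxn-/- (mean 9.67), where only WT replicate 2 overlapped with the Lxn-/- values, and a difference of 0.061 (SE 0.064). Icam1 had a mean of 9.92 (SD 0.028) in WT against 9.98 (SD 0.082) in Lxn-/- (n = 3 each), a difference of 0.059 (SE 0.069). Pecam1, a homophilic molecule of endothelium, platelets and stem cells, had 10.32 (SD 0.079) in WT against 10.37 (SD 0.056) in Lxn-/- (n = 3 each), a difference of 0.044 (SE 0.071).

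Jam2 and Jam3, junctional adhesion molecules that bind each other, differed in how much they varied. Jam3 had 7.31 (SD 0.087) in WT against 7.31 (SD 0.048) in Lxn-/- (n = 3 each), a difference of 0.0077 (SE 0.072). Jam2 had 8.50, 9.10 and 8.76 in WT (mean 8.79) and 8.52, 8.60 and 9.25 in Lxn-/- (mean 8.79), with WT replicate 2 and Lxn-/- replicate 3 well above the others, and a difference of 0.0030 (SE 0.21). Ncam1, a homophilic molecule of neural cells, had 8.52, 8.77 and 8.00 in WT (mean 8.43) and 8.60, 8.62 and 8.17 in Lxn-/- (mean 8.46), a difference of 0.033 (SE 0.20). In Ncam1 replicate 3 of each genotype was the lowest. Alcam, the ligand of the lymphocyte receptor CD6, had 10.45 (SD 0.15) in WT against 10.46 (SD 0.22) in Lxn-/- (n = 3 each), a difference of 0.010 (SE 0.13).

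Neither selectin-related receptor differed by more than 0.020 in size. Cd44, the receptor for hyaluronan, had 10.68, 10.76 and 10.57 in WT (mean 10.67) and 10.76, 10.54 and 10.70 in Lxn-/- (mean 10.67). Selplg, the ligand of P-selectin on leukocytes, had 11.80, 11.94 and 11.92 in WT (mean 11.89) and 11.83, 11.88 and 11.90 in Lxn-/- (mean 11.87). The groups overlapped in both, with differences of 0.00055 (SE 0.085, 95% confidence interval -0.20 to 0.20) and -0.020 (SE 0.068, 95% confidence interval -0.18 to 0.14).

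Among tetraspanins, Cd9, which associates with integrins on megakaryocytes and stem cells, had 9.46, 9.47 and 9.35 in WT (mean 9.43) and 9.50, 9.56 and 9.58 in Lxn-/- (mean 9.54). All Lxn-/- pools lay above all WT pools, and the nearest of them were 0.026 apart. The difference was 0.12 (SE 0.067, 95% confidence interval -0.039 to 0.27). Its exact permutation p was 0.1, the smallest this design allows and the value that any gene without overlap has. Its limma adjusted p was 0.993. The difference ran from 0.077 to 0.14 when each array was left out in turn, and without overlap its sign could not change.

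Cd82, a tetraspanin known for a role in keeping LT-HSCs dormant, had 11.86, 11.89 and 12.07 in WT (mean 11.94) and 11.96, 11.95 and 11.86 in Lxn-/- (mean 11.92). The groups overlapped almost fully, and the difference was -0.013 (SE 0.078). Cd151, a partner of the laminin-binding integrins, had a mean of 9.56 (SD 0.16) in WT against 9.57 (SD 0.087) in Lxn-/- (n = 3 each), a difference of 0.0083 (SE 0.096).

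The members differed widely in their spread between pools of the same genotype, a measure that takes no account of the genotype difference. The median of this residual SD was 0.10 over the members and 0.10 over all genes. Of the members, 7 of the 30 members lay above the 90th percentile of all genes, 0.20, and they were Cdh5 (0.87), Vcam1 (0.58), Itgam (0.36), Jam2 (0.35), Ncam1 (0.33), Itga1 (0.28) and Cdh2 (0.25). At the other end, 9 members lay below the 25th percentile, among them Itgb2 (0.034), Icam2 (0.045), Cd9 (0.056) and Selplg (0.058).

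**Figure D3:**
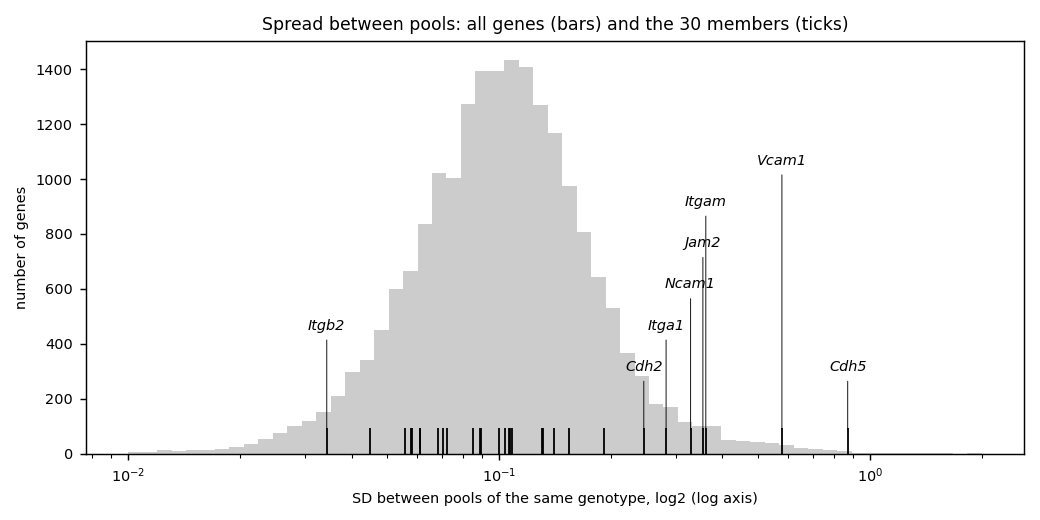
Distribution of the SD between pools of the same genotype over 19938 genes (grey bars, number of genes, log axis for the SD in log2 units) with the 30 members as black ticks. The 7 members above the 90th percentile of 0.20 and the steadiest member, Itgb2 at 0.034, are named.

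Lxn-/- replicate 3 was the lowest array for 9 of the 30 members and the highest for 7, where it was the lowest for 17.1% of all genes and the highest for 18.2%. The lowest 9 were Itga1, Itga4, Itga5, Itgal, Itgb7, Cdh2, Cdh5, Vcam1 and Cd82. WT replicate 3 was the lowest array for 7 members and the highest for 6, beside 19.1% and 25.6% of all genes. WT replicate 1 was the lowest for 7 and the highest for 5, beside 17.2% and 14.2% of all genes.

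Each of the 30 members was set beside 104 marker genes of LT-HSCs and other cells, and 7 members (23.3%) put the 6 arrays in the same order as at least 1 marker, as did 13.4% of the 19834 genes that are not markers. These comparisons were chosen after the values were seen, and with so many pairs they are a description only. In such pooled RNA, fewer cells of a type and less RNA per cell cannot be told apart. Cdh5 put the 6 arrays in the same order as Kdr, the endothelial receptor of VEGF, an order that 0.216% of all genes share. Kdr had 8.34, 8.18 and 8.88 in WT and 8.57, 8.69 and 7.58 in Lxn-/-. The 11 markers of stroma and endothelium averaged 7.76, 7.70 and 8.21 in WT and 7.86, 8.08 and 7.76 in Lxn-/-, and 6 of the 11 were above the mark on average, while Lum (4.49 to 4.59), Lepr (5.94 to 7.37), Pdgfra, Sox17 and Dcn were not. Within the list, Lxn-/- replicate 3 was the lowest array for 3 of the 11 markers (Kdr, Cxcl12 and Dcn) and the highest for 4. Those 4 were Tie1 (10.69), Robo4 (10.43), Pdgfrb (10.62) and Sox17 (6.72, below the mark). WT replicate 3, the highest array for Cdh5, was the highest for 5 of these 11 markers, 8 of 9 erythroid markers and 9 of 12 B cell markers. Lxn-/- replicate 3, the lowest for Cdh5, was the lowest for 5 of the 9 erythroid and 6 of the 12 B cell markers. The part of all these cells in the spread of Cdh5 was not tested.

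Vcam1 had the order of Cxcl12, a chemokine of marrow stroma, an order shared by 0.186% of genes. Cxcl12 had 7.62, 7.34 and 8.74 in WT and 7.80, 9.13 and 7.18 in Lxn-/-. Vcam1 is also a molecule of marrow macrophages, and the macrophage genes C1qa (8.01) and Adgre1 (7.70) had their lowest values in Lxn-/- replicate 3 and their highest in Lxn-/- replicate 2, as Vcam1 did. The 12 measured markers of monocytes, macrophages and dendritic cells, all above the mark, averaged 9.58 to 9.69 in WT and 9.38 to 9.72 in Lxn-/-. Of the 12, 4 were lowest in Lxn-/- replicate 3 and 5 highest in Lxn-/- replicate 2. Their average in Lxn-/- replicate 2 was 9.61, below 9.72 in Lxn-/- replicate 1. T and natural killer cell markers averaged lowest in Lxn-/- replicate 3 (7.94) and highest in Lxn-/- replicate 2 (8.78), as Vcam1 did. Itga1 had the same order of arrays as C1qa and as Mcpt8, a basophil protease (0.140% of genes), and Cd82 that of Ms4a2, a receptor subunit of mast cells (0.155% of genes). The 7 markers of mast cells, basophils and eosinophils averaged 9.69 to 10.21 in WT and 8.75 to 9.87 in Lxn-/-, with 6 of 7 lowest in Lxn-/- replicate 3. The part of these cells in the values of Vcam1, Itga1 and Cd82 was not tested.

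Itgam shared its lowest and highest arrays with neutrophil markers. S100a8, an abundant neutrophil protein, had 11.50, 10.67 and 8.42 in WT and 11.08, 9.94 and 11.82 in Lxn-/-. The 15 neutrophil markers averaged 9.21 to 11.05 in WT and 9.75 to 11.30 in Lxn-/-, with 11 of 15 lowest in WT replicate 3 and 9 of 15 highest in Lxn-/- replicate 3. Ncam1 put the arrays in the order of Ctsg and Prtn3, granule proteases of early granulocytes, an order of 0.201% of genes, and Ctsg had 12.52, 12.98 and 11.96 in WT and 12.65, 12.80 and 12.27 in Lxn-/-. No other neutrophil marker had that order. Lxn-/- replicate 3, highest for 9 of the 15 markers, lay above only WT replicate 3 for Ncam1 (8.17 against 8.00). The 10 measured T and natural killer cell markers averaged 8.00 to 8.35 in WT and 7.94 to 8.78 in Lxn-/-, with 8 of 10 highest in Lxn-/- replicate 2. The part of these cells in Itgam and Ncam1 was not tested.

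Jam2 had the order of Fgd5, an LT-HSC marker, shared by 0.181% of genes, and Fgd5 ran from 8.93 to 9.15 in WT and from 8.94 to 9.23 in Lxn-/-. The 12 LT-HSC markers averaged 10.60 to 10.77 in WT and 10.66 to 10.82 in Lxn-/-, a narrower range than that of Jam2 itself. WT replicate 1 was the lowest array for Jam2 and for 7 of the 12 markers, and Lxn-/- replicate 3 the highest for Jam2 and for 6 of the 12. Itga2 shared its order with the LT-HSC markers Procr and Meis1, over a range of 0.20, and 0.466% of genes had that order, the largest share for any member. Cdh2 had no marker among the 104 measured that put the arrays in its order.

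**Figure D4:**
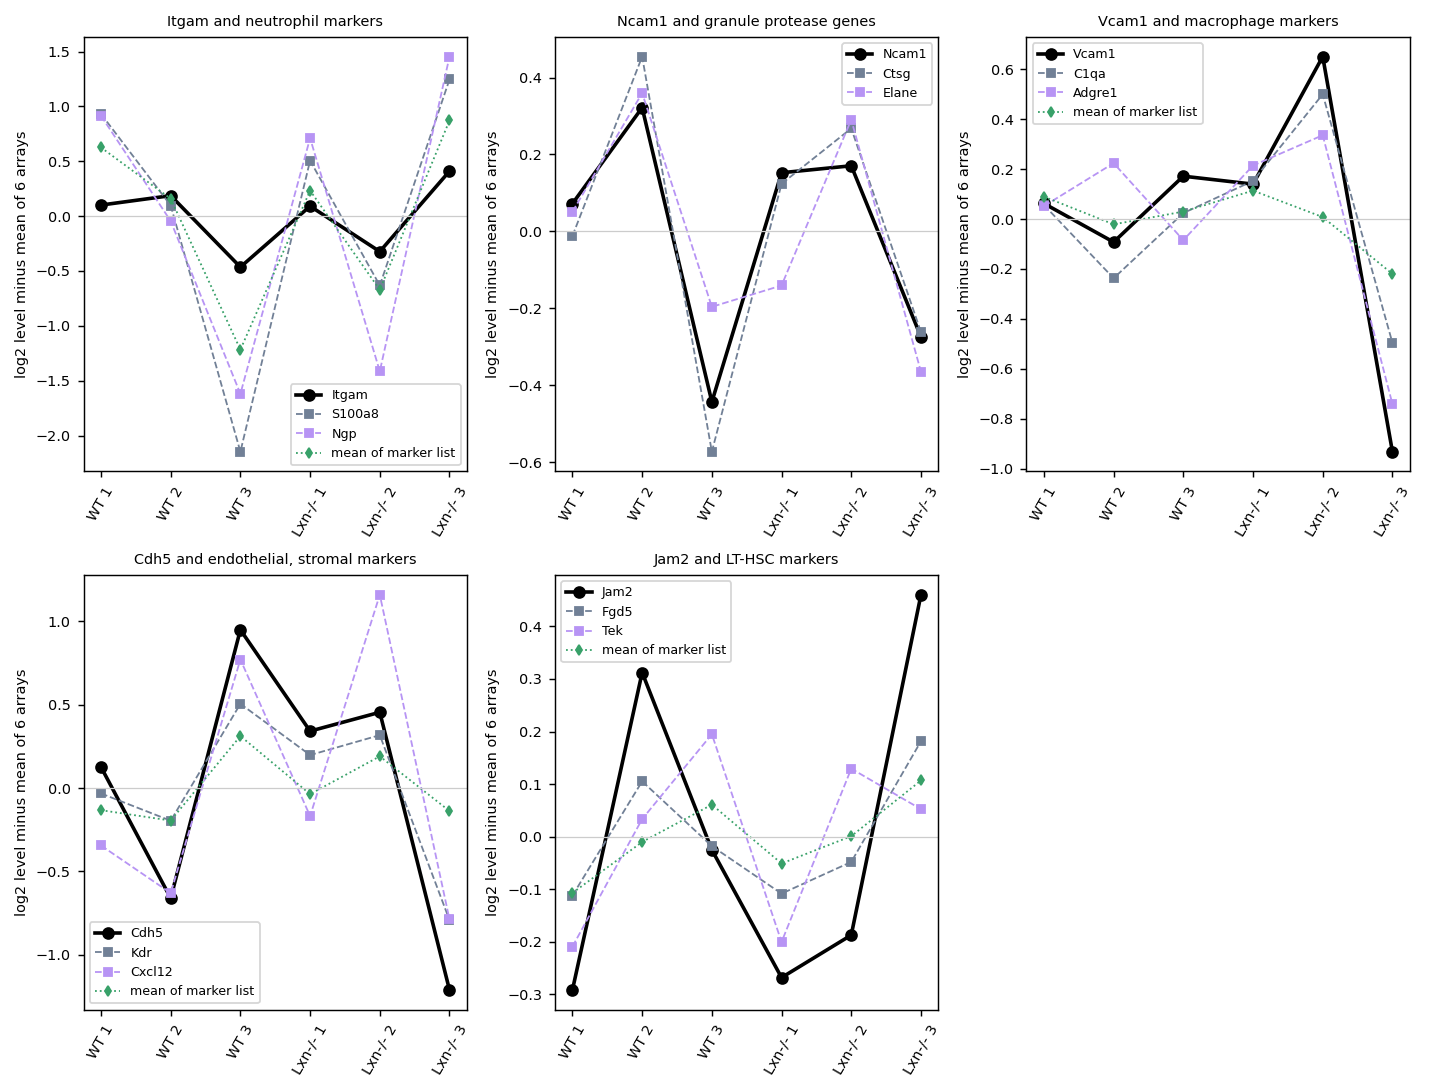
Log2 level minus the mean of 6 arrays, for Itgam, Ncam1, Vcam1, Cdh5 and Jam2 (black) and for marker genes and marker list means (coloured) in each array. Lines guide the eye only, since replicates have no order. Cdh5 and Kdr put the 6 arrays in the same order, as do Ncam1 and Ctsg and Jam2 and Fgd5.

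Genes that work with the members were examined in lists, and none of their members passed the test either. Of 47 intracellular adaptors and activators of integrins, 44 were measured, with 21 differences above 0, a median of -0.0021 and 0 genes passing an adjusted p of 0.05 in limma. At an unadjusted p under 0.05 there was 1 gene, higher in Lxn-/-, where 1.28% of all genes were. That gene was Rap1b, the small GTPase that switches integrins to their binding state, with 12.21, 12.07 and 12.09 in WT and 12.36, 12.29 and 12.27 in Lxn-/-. Its groups did not overlap, and its difference was 0.18 (SE 0.070, unadjusted p 0.0296, adjusted p 0.993 in limma). Fyb and Skap2, adaptors that carry Rap1 signals to integrins in blood cells, followed by p, with 0.16 (SE 0.087) and 0.14 (SE 0.083), and both overlapped between genotypes.

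The 11 other integrin subunits had a median difference of -0.045, with 5 above 0 and 0 at an unadjusted p under 0.05. Itga2b, the platelet and stem cell subunit that pairs with Itgb3, had 10.10 (SD 0.089) in WT against 10.24 (SD 0.12) in Lxn-/- (n = 3 each), a difference of 0.14 (SE 0.085). Itgb8 and Itga11 differed by -0.19 (SE 0.086) and -0.12 (SE 0.063), with means below the background mark in both genotypes.

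Of 10 catenins and junction partners, 9 were measured, with 3 differences above 0 and a median of -0.038, and Ezr, a linker of membrane proteins to actin, had the lowest p, with -0.12 (SE 0.067) and no overlap. It was followed by Ctnnd1, the catenin that holds cadherins at the membrane, with 0.072 (SE 0.080), and Tjp1, a scaffold of tight junctions, with 0.15 (SE 0.18).

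Of 32 matrix and vascular ligands, 29 were measured, with 15 differences above 0, a median of 0.0011 and 0 at an unadjusted p under 0.05. Lama5, a laminin chain bound by Itga6, differed by 0.13 (SE 0.079), Madcam1, the ligand of the Itga4 and Itgb7 dimer, by -0.17 (SE 0.11) and Lama3, another laminin chain, by 0.068 (SE 0.059). Fn1, fibronectin, named after its values were seen, had 10.36 in WT replicate 1 and no more than 9.06 in the other WT pools, and 10.24, 9.07 and 10.38 in Lxn-/-. The pools of each genotype were split between a level near 9 and a level above 10, and the difference was 0.42 (SE 0.44).

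Of 31 other cadherins, immunoglobulin-type, selectin-related and tetraspanin genes, 30 were measured, with 10 differences above 0 and a median of -0.050. At an unadjusted p under 0.05 there was 1, lower in Lxn-/-, where 2.47% of all genes were. Epcam, an epithelial adhesion molecule, had 8.89, 8.05 and 8.14 in WT and 7.85, 7.87 and 7.87 in Lxn-/-, without overlap and with WT replicate 1 well above the other arrays, a difference of -0.50 (SE 0.20, unadjusted p 0.0369, adjusted p 0.993 in limma). Cdh1, E-cadherin, had 8.07, 8.04 and 8.01 in WT and 8.01, 7.86 and 7.44 in Lxn-/-, and a difference of -0.27 (SE 0.13). Its groups barely missed overlap, with 8.011 in WT replicate 3 and 8.006 in Lxn-/- replicate 1. Pvr, a nectin-like receptor, differed by 0.16 (SE 0.076).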

How the data were processed

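LT-HSC RNA was measured on 6 arrays, 3 per genotype. The authors deposited log2 values normalized by RMA, per the labels (the submitters' processing notes name RMA and Partek 6.0), and the series' design text names RMA and limma. The summary level of the probes was not given in the sources used here. In all, the table held 35557 probe sets, of which GEO's platform annotation paired 21789 with 1 symbol, 1621 with several and 12147 with none. The 23410 with a symbol were fitted with limma 3.58.1 in R 4.3.3 (lmFit, eBayes, no covariates, two-sided, Benjamini-Hochberg over all). Each of 19938 genes was represented by its brightest probe set with a single symbol. SD is over 3 arrays and SE is limma's moderated standard error. Precision is limited by the number of arrays. The fit was tested on simulated data. The labels call the pools biological replicates, and p-values set the genotype difference against the spread between pools.

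Members and gene lists were chosen with earlier results of these data known. Every member is named. Values of all arrays are given for members without overlap, for the 2 of largest difference per family and for those set beside markers, and further values were added afterwards. From each partner list up to 3 genes of lowest p are named. Alternatives were quantile normalization, a common median, array weights, eBayes with trend and robust, removal of dim probe sets, averaging of probe sets, a replicate block and leaving out each array. Genes with no probe set of their own were not analysed here.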

Additional observations from a re-analysis of the deposited data

How the results depend on the processing

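In limma 0 probe sets passed an adjusted p of 0.05 under each of the 13 alternative settings, and the lowest adjusted p of any member in any setting was 0.628. The median difference of the members, 0.0054, was -0.0040 with a common median and ran from -0.0099 to 0.026 with each array omitted in turn, and the cause was not tested. The count of members without overlap, 1, was 1 in the 7 alternatives that keep all arrays. Of these, only quantile normalization and the common median change the values of the members, so the count could not differ in the others. With 1 array left out the count ran from 2 to 7, where 14.9% to 23.0% of all genes had no overlap because fewer arrays are compared. Signs of small differences were not stable: 13 members kept 1 sign in all settings (Itga2, Itga5, Itga9, Itgal, Itgav, Itgb1, Itgb2, Itgb5, Cdh2, Icam1, Icam2, Pecam1 and Cd9), and 13 members took the other sign without Lxn-/- replicate 3, 10 without WT replicate 3 and 12 with array weights. An unadjusted p under 0.05 appeared for Itga9 with array weights (0.0137), without WT replicate 3 (0.0399) and without Lxn-/- replicate 3 (0.0182), and for Cdh2 with a common median (0.0474), without WT replicate 2 (0.0421) and without Lxn-/- replicate 2 (0.0213). The labels name no pairing of same-numbered arrays. Their deviations from the group means correlated at 0.37, -0.072 and -0.081 over probe sets, beside -0.34 to 0.36 for arrays of different number. With 3 arrays per group, these correlations cannot decide whether the samples were paired. With the replicate block 0 probe sets were called. The median difference (0.0054) and the number of members without overlap (1) cannot change with a block in this balanced design.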
